A study of Mus musculus with 31 samples.

Results

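Meiotic break hotspots were examined at 8 genes of the mouse major histocompatibility complex (MHC) on chromosome 17. The genes were Psmb9, Tap1, Psmb8, Tap2, H2-Ab1, H2-Aa, H2-Eb1 and H2-Eb2, which stand in this order along 159 kb (34182030 to 34341410, mm10). A hotspot was taken when its centre lay inside the RefSeq span of a gene or within 10000 bp of either end. This gave 39 of the 414683 hotspots of the 26 lists, at 13 of 129181 places, where a place joins hotspots of different lists whose centres lie less than 400 bp apart. All 8 genes were placed by the annotation, 7 of them had a hotspot in at least 1 list, and H2-Aa had none. The label of MHC class II genes holds for the 4 H2 genes. Psmb9, Psmb8, Tap1 and Tap2 lie in the class II region but serve class I presentation.

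Psmb9 and Psmb8 encode catalytic subunits of the immunoproteasome, which cuts cytosolic proteins into peptides. Tap1 and Tap2 encode the paired subunits of the transporter that carries these peptides into the endoplasmic reticulum, where class I molecules bind them. H2-Ab1 and H2-Aa encode the beta and alpha chains of the class II molecule I-A, H2-Eb1 encodes the beta chain of I-E, and H2-Eb2 is a beta chain gene related to it. In meiosis, programmed DNA double-strand breaks start recombination, and in mice most of them form at hotspots placed by PRDM9, a DNA-binding histone methyltransferase whose zinc fingers differ between strains. Crossovers in this part of the mouse MHC have long been known to gather at a few short hotspots, among them ones at Psmb9 and at H2-Eb1, and which of them is used depends on the strains crossed.

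The breaks were mapped in testis by DMC1 SSDS, in which single-stranded DNA pulled down with the meiotic recombinase DMC1 is sequenced. The 19 F1 crosses carry the mother's strain before f and the father's before m, so that PWDfXCASTm had a PWD mother and a CAST father. Their parents were 6 inbred strains, each with a list of its own. These were CAST (CAST/EiJ), PWD (PWD/PhJ), 13R (B10.F-H2pb1/(13R)J), B6 (C57Bl/6J), MOL (MOLF/EiJ) and C3H (C3H/HeJ). The Prdm9 knockout (B6;129P2-Prdm9<tm1Ymat>/J, both parents) lacks PRDM9 and is set against B6. By its name, 13R is a congenic strain whose H2 region, the MHC itself, comes from a donor strain. Ages were not given in the sources used here, nor were pooling of animals and read depth. Each genotype had 1 library, so a value has no replicate error and a difference between 2 lists has no replicate check. Lists held between 10445 and 30929 hotspots. The submitters' text speaks of a removed library with a wrong label, and the accession it gives is that of the list labelled CAST here. The label CAST was used as given, and both calls that passed the test below rest on it as the carrier list. That list held no hotspot across the end of H2-Eb2, where the 13R list and all 5 crosses with a 13R parent had hotspots with overlapping intervals. Whether the label is right was not tested.

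The promoter windows of the genes show how these hotspots lie to gene starts. RefSeq windows of 300 bases (GRCm38.p6, the assembly of mm10), reaching 250 bases before the start and 50 after it, were matched for 6 of the 8 genes. Tap2 and H2-Ab1 had no matched window. Hotspots of PWDfXC3Hm and PWDfXCASTm ran across the lower-coordinate end of H2-Ab1 (34263227), so a touch at its start could not be checked. Of the 6 windows, only that of H2-Eb2 was touched by a hotspot, and only in the CAST list. It is shown for that reason, and the 58 bases inside the CAST hotspot are in capitals. The start site of this window (34325675) lies inside the RefSeq span of H2-Eb2, which begins at 34325503. A window set at the beginning of the span would reach further back and was not examined, so the lists that touch it depend on this choice. The window of Psmb9 is shown for contrast. No hotspot reached it, and the strongest CAST hotspot of the region lay past the other end of the gene. It shares 275 bases with the window of Tap1, which is read in the opposite direction. Its capitals mark CTGATTGG, an inverted CCAAT element, which in class II promoters is known as the Y box. Whether the copy at Psmb9 works as one was not tested.
H2-Eb2, chr17:34325425-34325724, plus strand: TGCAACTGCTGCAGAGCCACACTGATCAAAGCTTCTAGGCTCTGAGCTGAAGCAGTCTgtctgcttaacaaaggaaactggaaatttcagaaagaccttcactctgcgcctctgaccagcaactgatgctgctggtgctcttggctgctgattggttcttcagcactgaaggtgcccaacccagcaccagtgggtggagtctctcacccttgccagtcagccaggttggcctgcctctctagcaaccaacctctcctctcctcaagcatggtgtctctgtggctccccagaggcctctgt
Psmb9, chr17:34187281-34187580, minus strand: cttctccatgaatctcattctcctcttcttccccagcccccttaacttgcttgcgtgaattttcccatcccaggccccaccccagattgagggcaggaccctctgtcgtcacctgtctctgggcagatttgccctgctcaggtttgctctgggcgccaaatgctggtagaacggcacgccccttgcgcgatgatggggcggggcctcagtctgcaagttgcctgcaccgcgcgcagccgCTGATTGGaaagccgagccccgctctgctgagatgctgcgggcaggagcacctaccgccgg
Searched on both strands (CTGATTGG or CCAATCAG), the element was present in 5 of the 6 windows, those of Psmb9, Tap1, H2-Aa, H2-Eb1 and H2-Eb2, and in 4.10% of all 32851 RefSeq windows of this length. The windows of Psmb9 and Tap1 hold the same copy.

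Hotspots at the 8 genes differed between strains in place and in strength. Strength is given as a percentile, the percent of hotspots in the same list with a lower deposited score, because the score cannot be compared between lists. CAST and 13R each had 1 strong hotspot, at opposite ends of the region. The CAST one lay past the end of Psmb9 at percentile 98.3, and the 13R one at the end of H2-Eb2 at percentile 93.1. B6 and C3H had 1 weak hotspot each, at percentiles 27.5 and 41.0. MOL and PWD had none, and 4 of the 6 crosses with a MOL parent had none either. In all, 20 of the 26 lists had a hotspot at these genes. The median percentile of the 39 hotspots was 39.3 (SD 36.2 over hotspots), where all hotspots of a list have a median near 50 by construction.

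**Figure D1:**
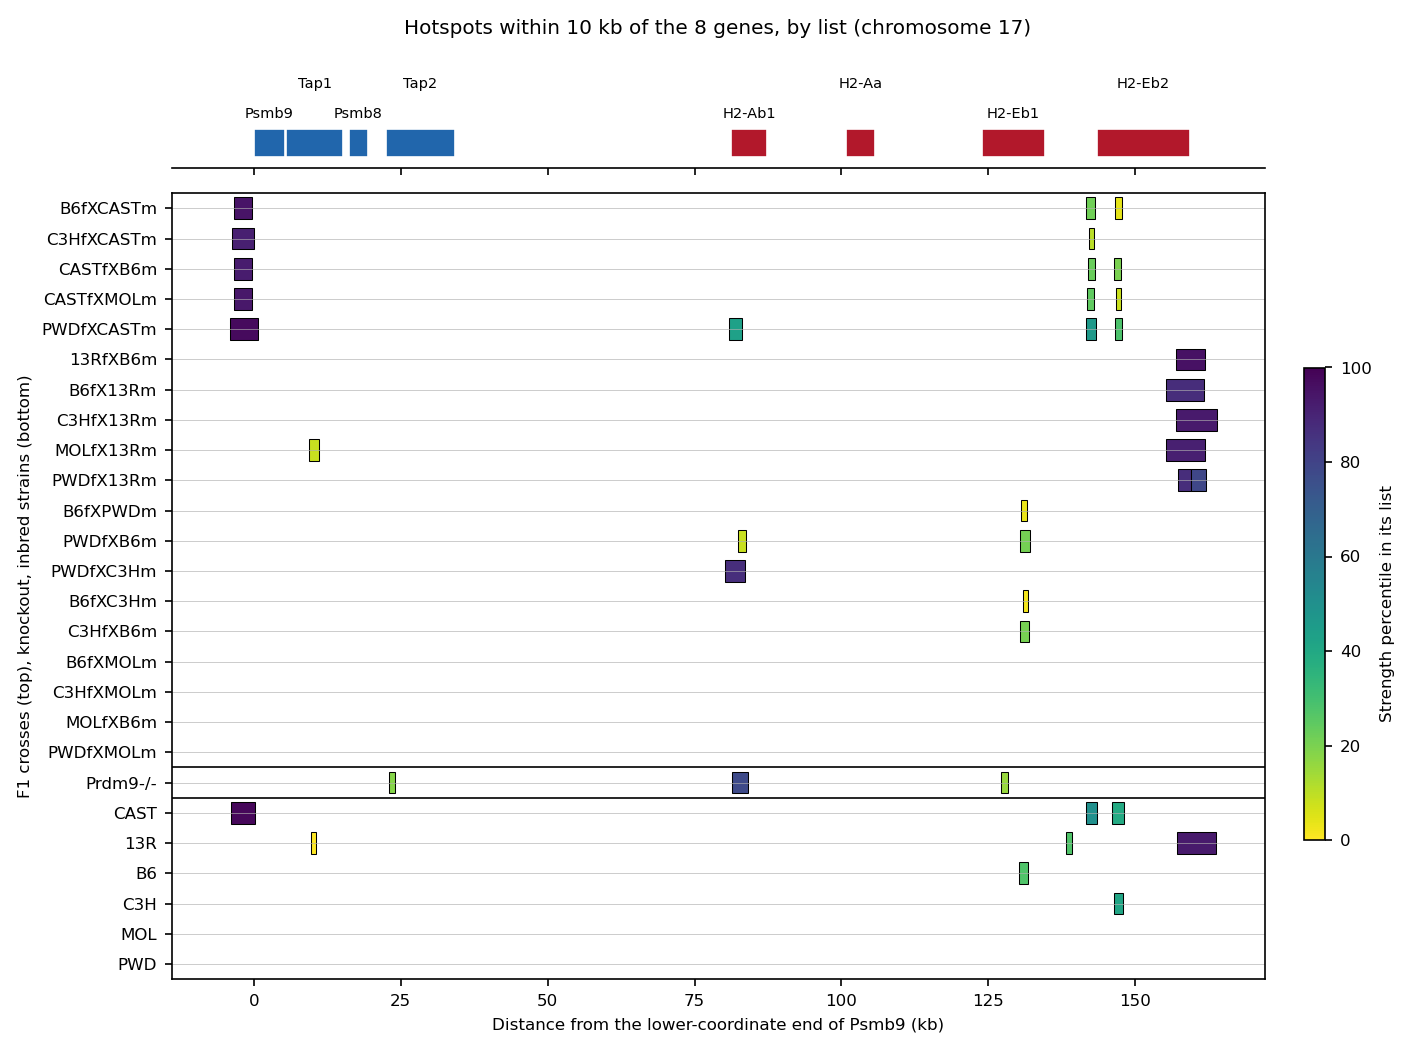
Position of every hotspot within 10 kb of the 8 genes, in kb from the lower-coordinate end of Psmb9 (x), for each of the 26 lists (rows, F1 crosses above the knockout and the inbred strains), with the genes drawn above (blue, antigen processing, red, H2 genes). Colour gives the strength percentile in the list. The 5 crosses with a CAST parent have the hotspots of the CAST row, except that C3HfXCASTm lacks the one inside H2-Eb2, 4 of the 5 crosses with a 13R parent have a wide hotspot at the end of H2-Eb2 as 13R does and PWDfX13Rm has 2 narrower ones, and the rows of MOL and PWD are empty.

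The share of the 8 genes with a hotspot lay below and above that of all genes, depending on the list. Hotspots per megabase averaged higher than over the autosomes. In the crosses this came mainly through those with a CAST parent, and in the inbred strains mainly through CAST and 13R. At least 1 inbred list had a hotspot at 5 of the 8 genes, against 72.7% of all 21883 protein-coding genes. At least 1 cross had one at 6 of 8, against 69.8%, and at least 1 of the 26 lists at 7 of 8, against 86%. The median member had a hotspot in 6 lists and the median protein-coding gene in 7. By list, 4 of 8 members had a hotspot in B6fXCASTm (30.6% of all genes), C3HfXCASTm (28.4%), CASTfXB6m (31.4%), CASTfXMOLm (32.7%) and MOLfX13Rm (32.9%), and 5 of 8 in PWDfXCASTm (37%). It was 2 of 8 in PWDfXB6m (36.4%) and 1 of 8 in 13RfXB6m (28.1%), B6fX13Rm (23.4%), C3HfX13Rm (30.8%), PWDfX13Rm (29.7%), B6fXPWDm (29.3%), PWDfXC3Hm (33.3%), B6fXC3Hm (27.9%) and C3HfXB6m (33.2%). The crosses with none were B6fXMOLm (27.1%), C3HfXMOLm (31%), MOLfXB6m (32.4%) and PWDfXMOLm (33.3%). In the knockout it was 5 of 8 (69.6%). Among the parents it was 5 of 8 in 13R (30%), 4 of 8 in CAST (31.1%), 1 in B6 (35.7%) and in C3H (29.1%), and none in MOL (31.8%) and PWD (29.9%). The genes are neighbours and 1 hotspot can count for up to 3 of them, so they are not independent features. Per megabase of the 152 kb within the windows, the crosses averaged 9.67 hotspots a list, against 5.86 over the autosomes. The knockout had 19.7 against 12.2, from 3 hotspots, and the inbred strains averaged 8.74 against 5.97, from 8 hotspots. Of those 8, CAST and 13R held 3 each, B6 and C3H 1 each, and MOL and PWD none. Of the 28 cross hotspots, 14 were at places of a CAST parent. Crosses with a CAST parent held 2 to 4 hotspots each, and the other crosses 0 to 2.

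**Figure D2:**
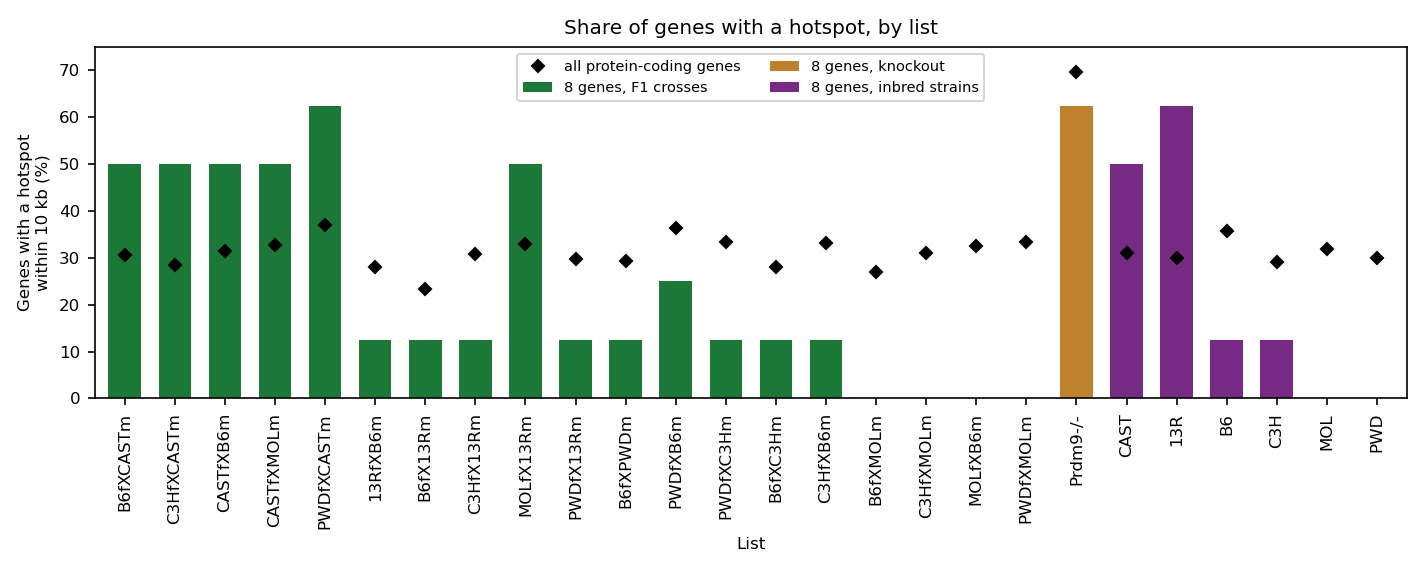
Percent of the 8 genes with a hotspot centre inside or within 10 kb (bars) and of all 21883 protein-coding genes (black diamonds), for each list on the x axis. Bars stand above the diamonds in the 5 crosses with a CAST parent, in MOLfX13Rm, and in the inbred CAST and 13R lists, and below them or at 0 in the other 18.

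At Psmb9, a strong hotspot was present in every cross with a CAST parent and in no other. Its centre lay 1671 to 1827 bp below the lower-coordinate end of the gene. Psmb9 is transcribed from the minus strand, so this is beyond its 3′ end, on the side away from Tap1. The strength percentile was 94.7 in B6fXCASTm, 92.3 in CASTfXB6m, 91.3 in C3HfXCASTm, 93.7 in CASTfXMOLm and 97.5 in PWDfXCASTm, against 98.3 in CAST itself, where it ranked 261 of 15068. All 5 crosses lay below the CAST list, and within them the lowest was the cross with C3H and the highest the cross with PWD. These were also the shortest and the longest of the 5 cross lists, with 13555 and 19084 hotspots. Parent and list length cannot be told apart in this order. In units of the list's median score the hotspot stood at 3.06 to 7.25 in the crosses and 6.69 in CAST. Centres in the 6 lists lay within 156 bp of each other, with intervals of 3026 to 4620 bp, of which the widest, in PWDfXCASTm, ran from 34178050 to 34182669.

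The hotspot was present in 5 of 5 crosses with a CAST parent and 0 of 14 others, a difference that passed (two-sided exact permutation test over the 19 crosses, p = 8.60e-05, the smallest that 5 crosses of 19 can give; adjusted p = 0.000393, Benjamini-Hochberg over 78302 autosomal places). Over all 78302 places, 37.7% passed with presence higher in crosses with a carrier parent. Among the 12079 autosomal places held by CAST alone of the inbred lists, 57% passed in this direction and 42.5% were in all 5 of these crosses and in no other. The pattern at Psmb9 was therefore common among CAST hotspots. Of all CAST places at or above percentile 75 of that list, 98.7% were found over the 5 crosses, with 98.6% to 99.0% in each. Crosses with a CAST parent carry both a CAST copy of Prdm9 (15543072 to 15564374 on the same chromosome) and a CAST copy of the MHC, and the parts of these in the result cannot be told apart, here and at the hotspots of the other parents. The test treats the 19 crosses as independent, although many have a parent in common.

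CAST hotspots of lesser strength lay at both sides of the start of H2-Eb2. The first had its centre at 34324537 in CAST, 1138 bp before the RefSeq start site, and its interval reached 58 bases into the promoter window printed above. It was present in the same 5 crosses, at percentile 21.6 in B6fXCASTm, 23.0 in CASTfXB6m, 10.5 in C3HfXCASTm, 24.3 in CASTfXMOLm and 46.2 in PWDfXCASTm, against 50.3 in CAST. As at Psmb9, C3HfXCASTm was lowest, PWDfXCASTm highest and CAST above all of them. The order of the crosses has the same limit, as these were the shortest and the longest of the cross lists with a CAST parent. Presence in 5 of 5 crosses with a CAST parent and 0 of 14 others passed (two-sided exact permutation test, adjusted p = 0.000393). Of all CAST places between percentiles 50 and 75, 88.1% were found over the 5 crosses. In the strongest 50% of each list the hotspot remained in CAST alone (0 of 5 crosses), so the call rests on weak hotspots.

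The second lay inside H2-Eb2, with centres from 34329017 to 34329204, and was the 1 place held by inbred lists of different strains, CAST at percentile 39.3 and C3H at 41.0. The crosses that held it were B6fXCASTm at percentile 4.17, CASTfXB6m at 19.95, CASTfXMOLm at 8.03 and PWDfXCASTm at 28.1. Each of these had a CAST parent and none a C3H parent. C3HfXCASTm, whose parents both had the hotspot, lacked it, and so did the 5 other crosses with a C3H parent. Presence in 4 of the 10 crosses with a carrier parent and 0 of 9 others did not pass (two-sided exact permutation test, adjusted p = 0.181). Of the 78 autosomal places held by C3H and CAST alone of the inbred lists, 50% passed and 11.5% were in every cross with a carrier parent and in no other. Without the CAST list only C3H counts as a carrier, and the difference turned to -30.8 percentage points (exact permutation test, adjusted p = 0.53). Places of this strength were often missing from crosses. Between percentiles 25 and 50, 44.4% of CAST places were found over the CAST crosses and 23.7% of C3H places over the C3H crosses. C3HfXCASTm held 29.8% of the CAST places in that range, the lowest share of the 5 crosses with a CAST parent, and PWDfXCASTm 67.6%, the highest. C3HfXCASTm held 6.66% of the C3H places in that range, against 61.6% in C3HfXB6m.

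**Figure D3:**
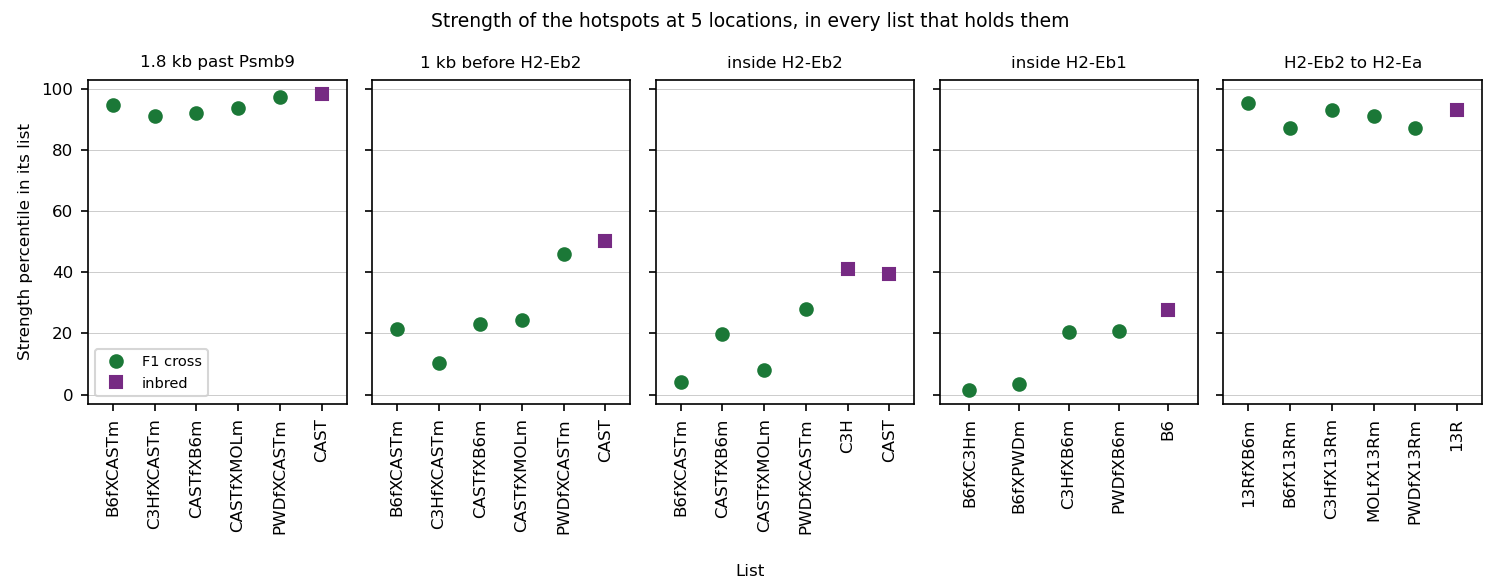
Strength percentile within its list (y) of the hotspots past Psmb9, before H2-Eb2, inside H2-Eb2, inside H2-Eb1 and from H2-Eb2 to H2-Ea, in every list that holds them (x, F1 crosses as green circles, then inbred strains as purple squares; for PWDfX13Rm the stronger of 2 hotspots). The hotspots past Psmb9 and from H2-Eb2 to H2-Ea lie at percentile 87.2 and above in every list shown, and the other locations at 50.3 and below.

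At the other end of the region, 4 of the 5 crosses with a 13R parent, and 13R itself, had a wide and strong hotspot. It ran across the end of H2-Eb2 and the lower-coordinate end of H2-Ea, and PWDfX13Rm had 2 narrower ones there. In 13R and C3HfX13Rm the interval covered all of H2-Ea (34341952 to 34344645). H2-Ea encodes the alpha chain of I-E in strains that express it, and RefSeq lists it as a transcribed pseudogene in B6. The strength percentile was 95.6 in 13RfXB6m, 87.2 in B6fX13Rm, 93.1 in C3HfX13Rm and 91.3 in MOLfX13Rm, against 93.1 in 13R, where the hotspot ranked 1019 of 14752. Those of PWDfX13Rm were at percentiles 87.4 and 78.7, which lay side by side without overlap. Apart from these, of 2212 and 2500 bp, the intervals were 4930 to 6892 bp wide, more than any other hotspot at these genes.

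The width made this hotspot sensitive to how lists are matched. Centres ran from 34340354 to 34342760, before and after the end of H2-Eb2, and the 400 bp rule divided them into 3 places. By that rule the place of the 13R centre was in 2 of 5 crosses with a 13R parent and 0 of 14 others (two-sided exact permutation test, adjusted p = 0.131). When intervals that overlap were joined, it became 1 place in 5 of 5 against 0 of 14 (exact permutation test, adjusted p = 0.000419). Among the 13227 autosomal places held by 13R alone, 62.3% passed by the 400 bp rule and 48.6% were in all 5 crosses and in no other. At or above percentile 75 of the 13R list, 99.3% of places were found over its 5 crosses by that rule, with 98.9% to 99.6% in each.

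**Figure D4:**
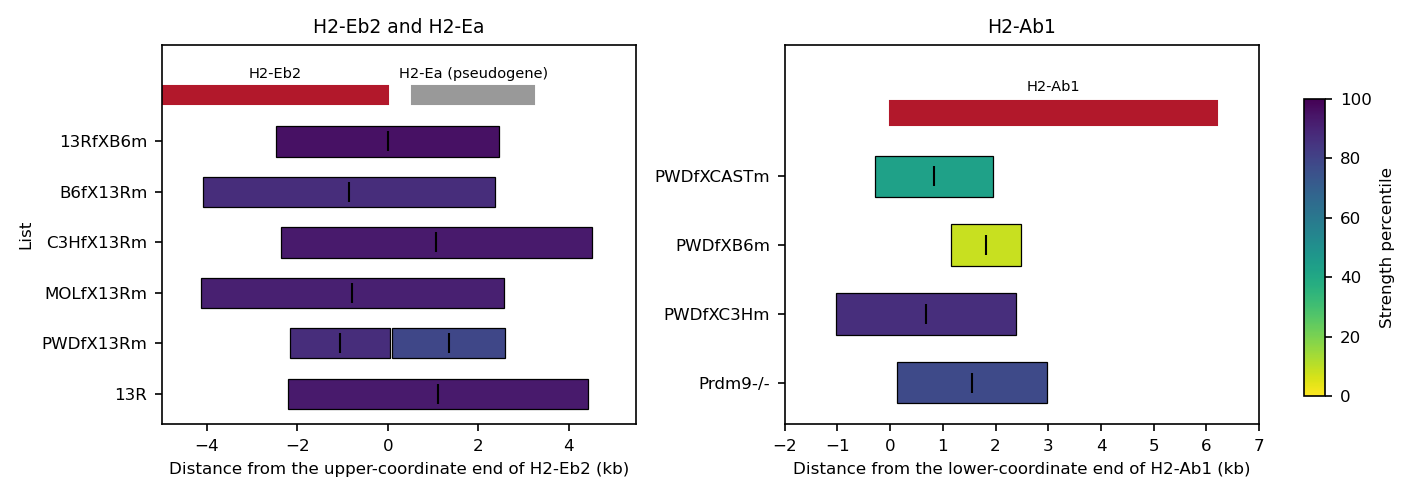
Intervals of the hotspots at the end of H2-Eb2 (left, in kb from the upper-coordinate end of the gene) and at H2-Ab1 (right, in kb from its lower-coordinate end), with 1 row per list, centres as black ticks and colour as the strength percentile. On the left the intervals overlap in the 5 crosses and in 13R, while the centres fall before, at and after the end of H2-Eb2. On the right all 3 crosses have a PWD parent and overlap the knockout hotspot.

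The other 13R hotspots were weak and were seldom found in crosses. One inside Tap1 was at percentile 8.41 in MOLfX13Rm, against 0.129 in 13R, where it ranked 14733 of 14752. It was in 1 of 5 crosses with a 13R parent (two-sided exact permutation test, adjusted p = 0.480). One between H2-Eb1 and H2-Eb2, at percentile 27.7 in 13R, was in none of them. Over the 5 crosses, 16.1% of 13R places below percentile 25 and 49.9% of those between 25 and 50 were found.

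Inside H2-Eb1, B6 had a hotspot of low strength (34312307 to 34313846, percentile 27.5, rank 14146 of 19528). It was present in 4 of the 10 crosses with a B6 parent, at percentile 20.4 in C3HfXB6m, 1.62 in B6fXC3Hm, 20.8 in PWDfXB6m and 3.51 in B6fXPWDm. All 4 lay below the B6 list, and in both pairs of reciprocal crosses the list with the B6 mother was the lower. Those lists were also the shorter ones, with 13623 against 18155 hotspots for C3H and 13606 against 17518 for PWD. List length and cross direction cannot be told apart in these pairs. The hotspot was absent from both directions of the crosses of B6 with 13R, CAST and MOL. Presence in 4 of 10 crosses with a B6 parent and 0 of 9 others did not pass (two-sided exact permutation test, adjusted p = 0.181), while 14.5% of the 12928 autosomal places held by B6 alone did and 4.08% were in all 10 of these crosses and in no other.

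Most B6 hotspots of this strength were missing from the crosses. Of all B6 places between percentiles 25 and 50, 12.2% were found over the 10 crosses with a B6 parent. The C3H crosses held 42.1% (C3HfXB6m) and 27.9% (B6fXC3Hm), and the PWD crosses 10.5% (PWDfXB6m) and 9.02% (B6fXPWDm). The 6 other crosses held 0.889% (B6fX13Rm) to 8.52% (MOLfXB6m). The 4 crosses with the H2-Eb1 hotspot were thus the 4 with the highest shares.

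H2-Ab1 had a hotspot in 3 of the 6 crosses with a PWD parent and in the knockout, but in no inbred strain. In PWDfXC3Hm it reached percentile 86.8 (34262196 to 34265611, rank 2195 of 16571), 3.87 times the median score of that list. It was at percentile 43.2 in PWDfXCASTm and at 8.35 in PWDfXB6m. The 3 crosses thus ranged from the strong to the very weak part of their lists, and neither parent of any of them had a hotspot there. In the knockout the hotspot was at percentile 77.6 (34263356 to 34266197). The knockout and PWDfXB6m centres formed 1 place and the other crosses another, while the intervals of all 4 overlapped. Since no inbred list held it, the test over crosses was not applied. PWDfX13Rm, PWDfXMOLm and B6fXPWDm, the other crosses with a PWD parent, had no hotspot there. B6fXPWDm was the only cross with a PWD father, and its list was shorter than that of PWDfXB6m (13606 against 17518 hotspots). Cross direction and list length cannot be told apart here.

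The knockout had 3 hotspots at these genes, at H2-Ab1, at Tap2 (34205071 to 34206074, percentile 18.1) and inside H2-Eb1 (34309131 to 34310406, percentile 15.4). The last had its centre at 34309768, against 34313076 for the B6 hotspot in that gene, and the intervals did not overlap. B6 had no hotspot at the other 2 genes. Hotspots placed without PRDM9 are known to lie at promoters and other open chromatin. The knockout hotspot inside H2-Eb1 overlapped none of the promoter windows matched here. The windows of Tap2 and H2-Ab1 were not matched, so the hotspots there could not be checked against them. Those began at 34205071 and 34263356, near the lower-coordinate ends of Tap2 (34204479) and H2-Ab1 (34263227).

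Over all crosses, the hotspots at these genes matched few parents. Of the 28 cross hotspots, 14 matched the CAST parent, 4 the B6 parent and 3 the 13R parent by the 400 bp rule, and 7 matched neither parent. With overlapping intervals joined there were 27 pairs of cross and place, of which 14 matched CAST, 6 matched 13R, 4 matched B6 and 3 matched neither, and the last were the H2-Ab1 hotspots. No cross hotspot matched a C3H, MOL or PWD parent or both parents. MOL and PWD had no hotspot at these genes to match, and C3H had 1. Only C3HfXCASTm had parents that shared a place. Both strong hotspots were present in either direction of the cross with B6. The one past Psmb9 was at percentile 92.3 with a CAST mother and 94.7 with a CAST father. The one across the end of H2-Eb2 was at 95.6 with a 13R mother and 87.2 with a 13R father. The intervals of these 13R crosses overlapped, but the 400 bp rule put their centres at different places. The list of 13RfXB6m had 13361 hotspots and that of B6fX13Rm 10445. The nearest hotspot outside the windows was a MOL hotspot 42943 bp away, at percentile 14.4. All 39 hotspots lay within 5000 bp of a member gene.

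Other genes of antigen presentation were taken from a list of 21. By list, between 0 and 6 of them had a hotspot in the crosses, 17 in the knockout and 1 to 9 in the inbred strains. Of all protein-coding genes, 23.4% to 37% had one by list in the crosses, 69.6% in the knockout and 29.1% to 35.7% in the inbred strains. Of the other class II genes in the region, H2-Ob and H2-DMb1 had a hotspot in no list, H2-Oa in the knockout alone, H2-DMb2 in MOL alone, and H2-DMa in MOL and the knockout. Genes with a hotspot in at least 5 lists were Psmb7 (21 lists), Canx (20), Psmb10 (12), Erap1 (12), Ciita (11), H2-K1 (9) and Psme2 (5). Psmb10 encodes the third catalytic subunit of the immunoproteasome, beside those of Psmb8 and Psmb9, and its hotspot on chromosome 8 (105930041 to 105933906 in CAST) was in all 5 crosses with a CAST parent, at percentiles from 80.5 in C3HfXCASTm to 99.5 in PWDfXCASTm, and in CAST at 94.5. Unlike the hotspot past Psmb9 it was also in all 6 crosses with a PWD parent, at 94.8 to 99.5, without being in the PWD list. Ciita, which encodes the main transcriptional activator of class II genes, had a hotspot past its upper-coordinate end on chromosome 16 in PWDfXCASTm at percentile 97.0, in CASTfXB6m at 93.2 and in B6fXCASTm at 91.2, and PWD had it at 27.8, while the CAST and B6 lists had none there. At H2-K1, a class I gene of the MHC, the highest percentiles among crosses were 92.8 in MOLfXB6m and 85.8 in B6fXMOLm, and neither parent list had a hotspot there. The knockout hotspot inside H2-K1 was at percentile 89.5.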

How the data were processed

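DMC1 SSDS was done on testis of 26 genotypes, with 1 library each; 5 input samples were not used here. The authors deposited 1 hotspot list per library with chromosome, start, end and a strength score. The build was mm10, and CASAVA 1.8 and MACS2 2.0.10 are named, per the submitters' processing notes. How the deposited score was filtered and scaled is not stated in the labels. As 104 scores in 22 lists lie below 0, the score was used only within a list. Read depth is unknown, so a missing hotspot may be one below the calling limit of that library. Starts were read as counted from 0 and are printed counted from 1.

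Hotspots of all lists were joined into places by single linkage of centres less than 400 bp apart. Genes came from a RefSeq table of GRCm38.p6. For each autosomal place held by 1 to 5 inbred lists, the share of crosses with it was compared between crosses with a carrier parent and other crosses (two-sided exact permutation, Benjamini-Hochberg, threshold 0.05), and the code was tested on simulated data. Python 3.11.15, numpy 2.4.6, pandas 2.3.3, scipy 1.17.1 and matplotlib 3.10.9 were used. Genes were named by rule: all 8 members, antigen presentation genes with a hotspot in at least 5 lists, and the 3 most alike places elsewhere for each of the 3 member places held by most lists, of which 1 is not reported here. The members, lists and tests were chosen with earlier results of these data known. Alternatives covered windows, matching rules, strength limits and left-out lists.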

Additional observations from a re-analysis of the deposited data

How the results depend on the processing

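By the exact permutation test over crosses, the places past Psmb9 and before H2-Eb2 passed under 200 bp, 1000 bp and overlap matching, with both directions of a cross as 1 unit (adjusted p = 0.00438) and with percentiles in place of presence. With any 1 of the 19 crosses left out, the number of member places passing stayed at 2 (adjusted p 0.000529 to 0.00148 for both). It was 1 of 2 tested in the strongest 5000 of each list and 1 of 3 in the strongest 50%, that past Psmb9 in both. It was 0 of 5 without the CAST list, an alternative chosen after seeing the data, since these places then have no carrier and are not tested. The difference at the place inside H2-Eb2 was then -30.8 percentage points. In the strongest 5000 there were 5 places, 14 hotspots, 4 genes and 13 lists at the members, and in the strongest 50% 7 places and 16 hotspots. With centres inside a gene only, 23 hotspots and 23 pairs of gene and list were left, against 39 and 51. Cross places at neither parent fell to 3 with overlapping intervals, against 7. H2-Aa gained a hotspot with a window of 20000 bp. No paired analysis was possible because the labels give no replicate numbers that pair samples across groups. Unknown depth limits all statements on absence, most for weak hotspots. All lists were made on mm10, and how well reads of each strain aligned there at the MHC was not tested, which also limits them.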

Other observations

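The member places held by most lists were compared with all other autosomal places by Pearson's r of the strength percentile over the 26 lists, with absent lists at 0, which is a description with no test. The place past Psmb9 was most like places 32283 bp from Micu2 on chromosome 14 (r = 1.000), inside Ralgps1 on chromosome 2 and inside Csnk1a1 on chromosome 18. Each of these was in the same 6 lists, CAST and its 5 crosses, so that r mostly reflects which lists hold the place. The place before H2-Eb2 was most like places near Slc35g1 on chromosome 19 (r = 0.998) and Zc3h8 on chromosome 2, also in these 6 lists. The place inside H2-Eb2 was most like places near Ccin on chromosome 4 (r = 0.956), Gm30733 on chromosome 2 and Erg on chromosome 16. Those were in 8 lists each, among them C3HfXCASTm and C3HfXB6m, which lacked the H2-Eb2 hotspot.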
